A study of Rattus norvegicus with 6 samples.

Results

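Genes of blood vessels, of the barrier between blood and retina, and of blood itself were read in RNA from rat neural retina. The 47 genes were chosen by symbol, for their known roles: endothelial receptors and surface proteins, angiopoietins, caveolae and fenestrae, tight junctions, barrier transporters, mural cells (pericytes and smooth muscle), haemoglobin and the hypoxia-inducible factors. This choice was made with earlier results of these data known. Matched to the gene table without regard to case, 46 of the 47 had a row, of 19623 symbols in all. No row carried the symbol Acta2, the smooth muscle actin gene, which was not analysed here.

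The study sampled retina at postnatal day 60 from 6 samples in 3 groups of 2. Royal College of Surgeons (RCS) rats, which carry a mutation in the phagocytosis receptor gene Mertk and lose their photoreceptors, received human neural progenitor cells (hNPCs) under the retina at postnatal day 21; other RCS rats received sham surgery, with the carrier medium alone; and pigmented wild-type Long Evans rats received the same sham surgery. RNA was taken only from the region with the graft, or from the corresponding region of sham eyes. Whether the samples of a group are separate animals is not given in the labels. The only values analysed here come from a gene table in Cufflinks format with 1 FPKM value per gene (fragments per kilobase of transcript, scaled to the mapped fragments). Its columns are tied to no sample and no group, so levels were compared between genes and never between groups, and no value has a replicate.

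Retinal capillaries form the inner blood-retina barrier. Their endothelial cells are sealed by tight junctions built from claudins, occludin and junctional adhesion molecules on zonula occludens scaffolds, carry few transport vesicles, and take up nutrients and expel drugs through dedicated transporters. Pericytes wrap the capillaries, and the pigment epithelium, which lies behind the photoreceptors and also uses claudins, forms the outer barrier. Vascular growth is driven by vascular endothelial growth factor (VEGF), whose gene is a target of the hypoxia-inducible factors.

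The members spanned a wide range. Of the 46, 34 reached 1 FPKM, beside 61.0% of all symbols, and 13 reached 10 FPKM, beside 28.9% of all symbols. Listed at 0 were 3 of the 46 members, all of them claudins, beside 23.6% of all symbols. The other 9 members under 1 FPKM lay above 0. The median was 2.47 FPKM for the members and 3.17 FPKM for all symbols. Together the members made up 0.185% of the FPKM total of the table. Hif1a was highest at 95.2 FPKM, followed by Cav1 at 80.7 FPKM and Kdr at 52.2 FPKM.

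Among endothelial, mural, junction, transporter and blood genes, the medians ran from mural genes at 0.855 FPKM (5 genes) through endothelial genes at 1.73 FPKM (10 genes), claudins at 1.96 FPKM (10 genes), other junction genes at 3.48 FPKM (6 genes) and transporters at 6.42 FPKM (5 genes) to the globins at 11.8 FPKM (2 genes). Outside these groups, the 3 genes of caveolae and fenestrae had a median of 32.3 FPKM and the 2 hypoxia factors one of 65.7 FPKM. The ranges of the endothelial, claudin, other junction, transporter, mural and blood genes overlapped. In most groups 1 gene held much of the sum: 86.8% of the mural sum lay in Rgs5, 71.1% of the endothelial sum in Kdr and 51.3% of the claudin sum in Cldn12. Such shares are of FPKM, which is scaled to transcript length, and not of fragments. In bulk RNA, fewer cells of a type and less RNA per cell cannot be told apart, so these levels do not count cells.

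**Figure D1:**
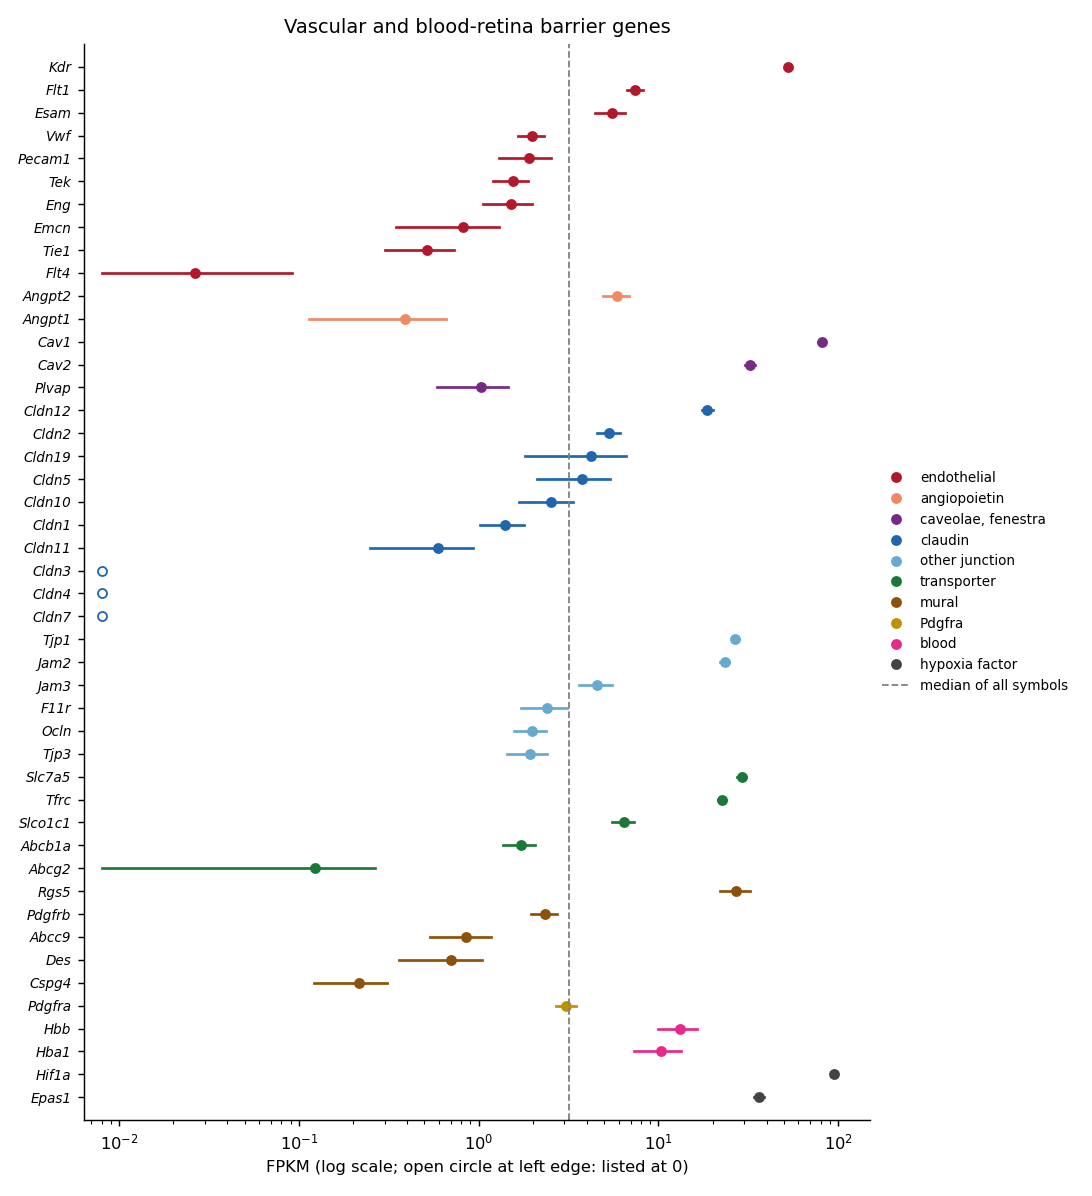
FPKM of the 46 matched members on a log axis, grouped and coloured by role; lines span the bounds deposited with each value, and a lower bound of 0 is drawn to the left edge. Hif1a, Cav1 and Kdr lie furthest right, the dashed line marks the 3.17 FPKM median of all symbols, and the open circles of Cldn3, Cldn4 and Cldn7 mark genes listed at 0.

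Where a gene is introduced below, its value is followed by the bounds deposited with it, except for most cell type markers. If these bounds span 2 standard errors and reflect counting alone, they imply a number of fragments for each gene, here called the implied fragments. Among the 31 members with between 0.5 and 200 of them, 21 lay within 0.02 of a whole number, beside 69.6% of 11492 rows of the table in the same range. Above 200 the reading as counts was not checked. The members' implied fragments ran from 0.646 for Flt4 to 4104 for Hif1a; 12 members above 0 had under 30, and 8 had 1000 or more. Ordered by level, only 6 of the 43 pairs of neighbours had bounds that did not overlap: Hif1a and Cav1, Cav1 and Kdr, Kdr and Epas1, Tjp1 and Jam2, Tfrc and Cldn12, and Cldn12 and Hbb. The order within the lower members is therefore not resolved between neighbours.

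Promoter sequences of 35 of the members were found in RefSeq (assembly GRCr8). Those of 4 genes are shown, 1 each from the endothelial, claudin, hypoxia and blood genes, to give the sequence in front of genes that differed in level. Each runs 5′ to 3′ in the gene's direction over the 250 bases before the annotated start, with capitals marking 3 short motifs on either strand. These are the CAAT box (letters CCAAT), the GC box (letters GGGCGG) and a core of the hypoxia response element (letters ACGTG).
Kdr, chr14:32571813-32572062, plus strand: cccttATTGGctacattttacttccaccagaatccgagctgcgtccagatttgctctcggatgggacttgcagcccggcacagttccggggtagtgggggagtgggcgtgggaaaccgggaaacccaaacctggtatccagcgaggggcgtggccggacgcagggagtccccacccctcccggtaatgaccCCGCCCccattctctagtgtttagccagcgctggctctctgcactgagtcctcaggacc
Cldn5, chr11:95718599-95718848, minus strand: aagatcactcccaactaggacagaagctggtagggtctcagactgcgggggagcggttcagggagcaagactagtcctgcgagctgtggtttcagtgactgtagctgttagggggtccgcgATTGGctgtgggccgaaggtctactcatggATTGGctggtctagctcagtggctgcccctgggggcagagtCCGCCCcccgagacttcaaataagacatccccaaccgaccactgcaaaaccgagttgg
Hif1a, chr6:98359648-98359897, plus strand: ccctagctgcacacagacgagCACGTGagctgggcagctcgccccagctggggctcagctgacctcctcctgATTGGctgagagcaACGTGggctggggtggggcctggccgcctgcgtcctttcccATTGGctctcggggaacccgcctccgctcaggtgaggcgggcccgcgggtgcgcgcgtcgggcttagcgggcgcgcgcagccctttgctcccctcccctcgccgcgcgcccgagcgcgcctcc
Hbb, chr1:167663722-167663971, minus strand: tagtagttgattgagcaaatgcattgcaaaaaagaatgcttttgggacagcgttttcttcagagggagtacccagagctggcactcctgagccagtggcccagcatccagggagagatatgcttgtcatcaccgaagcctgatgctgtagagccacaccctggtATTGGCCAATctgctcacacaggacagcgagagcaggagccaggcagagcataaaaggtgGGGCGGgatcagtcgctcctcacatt

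Kdr held 1 CAAT box and 1 GC box, and Cldn5 held 2 CAAT boxes and 1 GC box. Hbb held 2 CAAT boxes, side by side on opposite strands, and 1 GC box. Hif1a held 2 CAAT boxes and 3 matches of the hypoxia core, of which a pair on opposite strands overlap. Across the 36 windows of the 35 members, the CAAT box was found in 13, beside 34.0% of 33469 windows of the same length. The GC box was found in 25, beside 30.5% of all windows, and the hypoxia core in 4, beside 16.6%. All windows include genes of every biotype in the table. These matches describe letters, and the levels were not compared with them.

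Among the endothelial receptors, the VEGF receptor gene Kdr stood far above the rest. Kdr (ENSRNOG00000046829, chromosome 14, 34557361 to 34618109 in build rn5), which encodes the main signalling receptor for VEGF-A, was at 52.2 FPKM (50.5 to 54.0) with 3645 implied fragments. Flt1, which encodes a high-affinity receptor that restrains VEGF signalling, was at 7.44 FPKM (6.71 to 8.17; chromosome 12, 11155072 to 11322925). Its row overlaps that of Pan3, and reads of overlapping genes cannot be told apart without strand, which is not given in the sources used here. Flt4, the receptor gene of lymphatic endothelium, was at 0.0264 FPKM (0 to 0.0921), less than 1 implied fragment. Kdr was 7.02 times Flt1 (95% counting interval 6.34 to 7.77). The ligand gene Vegfa, at 55.4 FPKM (52.1 to 58.6), was 1.06 times Kdr, with an interval of 0.992 to 1.13 that holds 1.

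The Tie receptors and the other endothelial surface genes, apart from Esam, lay below the 3.17 FPKM median of all symbols. Tek, the angiopoietin receptor gene, was at 1.55 FPKM (1.21 to 1.89; chromosome 5, 117672484 to 117799345), and its row overlaps another row that has no symbol. Tie1, its co-receptor gene, was at 0.517 FPKM (0.301 to 0.732). Kdr was 33.7 times Tek (27.1 to 41.9), and Tek was 3.0 times Tie1 (1.89 to 4.75). Esam, an endothelial adhesion molecule gene, was next after the VEGF receptors at 5.49 FPKM (4.43 to 6.54). Vwf, which encodes the clotting protein von Willebrand factor, was at 1.99 FPKM (1.66 to 2.32), Pecam1, an endothelial adhesion gene, at 1.91 FPKM (1.30 to 2.53), and Eng (endoglin, a co-receptor for TGF-beta) at 1.52 FPKM (1.06 to 1.98). The bounds of Vwf, Pecam1, Eng and Tek all overlap. Emcn, a sialomucin gene of capillary and venous endothelium, was at 0.821 FPKM (0.347 to 1.29) on 12 implied fragments.

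Genes of a wider endothelial list lay at 2.02 FPKM or below, with Podxl as the exception. The median of its 16 genes was 0.557 FPKM, and 3 were at 1 FPKM or above, beside 61.0% of all symbols. Podxl (podocalyxin, also made outside endothelium) was at 41.2 FPKM (39.6 to 42.9). Ramp2, an adrenomedullin receptor subunit gene, was at 2.02 FPKM (0.941 to 3.10). Cdh5 (VE-cadherin, the adherens junction protein of endothelium) was at 1.001 FPKM (0.608 to 1.39). Clec14a and Ecscr were listed at 0. Without Kdr, the 9 other endothelial members had a median of 1.55 FPKM and a sum of 21.3 FPKM, against 52.2 FPKM for Kdr alone.

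The angiopoietins act on Tek. Angpt2, which encodes the context-dependent antagonist made by activated endothelium, was at 5.90 FPKM (4.94 to 6.87), and its row overlaps that of Mcph1. Angpt1, the stabilising agonist gene, was at 0.387 FPKM (0.113 to 0.661) on 8 implied fragments. The ratio of Angpt2 to Angpt1 was 15.3 (7.49 to 31.1). In the wider list of growth factor ligands and co-receptors, the median was 2.69 FPKM. Here 8 of 11 genes were at 1 FPKM or above, beside 61.0% of all symbols. After Vegfa, the highest were Vegfb at 4.04 FPKM (3.13 to 4.95) and the co-receptor gene Nrp1 at 3.53 FPKM (2.97 to 4.10).

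Caveolin genes were among the highest members, and Plvap was not. Cav1 (ENSRNOG00000006694, chromosome 4, 45203434 to 45236460), the structural gene of caveolae, which Müller glia are also known to express, was at 80.7 FPKM (77.3 to 84.1). Cav2, which encodes its partner, was at 32.3 FPKM (30.2 to 34.4). The Cav2 and Cav1 rows are neighbours on chromosome 4, 16.4 kb apart with no row between them, and Cav1 was 2.50 times Cav2 (2.32 to 2.70). Plvap, which encodes the diaphragm protein of fenestrated and leaky vessels and is low in mature barrier endothelium, was at 1.03 FPKM (0.588 to 1.46) on 22.0 implied fragments. Cav1 was 78.7 times Plvap (51.7 to 119.8). Among the endothelial members, the bounds of Plvap overlap those of Pecam1, Eng, Tek, Emcn and Tie1. They lie below those of Kdr, Flt1, Esam and Vwf and above those of Flt4.

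Claudins are the sealing strands of tight junctions. Cldn12, a broadly expressed family member, was highest at 18.7 FPKM (17.4 to 20.1; chromosome 4, 25593560 to 25599715). Cldn2, which forms a cation pore in leaky epithelia, followed at 5.31 FPKM (4.53 to 6.09). Cldn19, a claudin of the pigment epithelium, was at 4.20 FPKM (1.80 to 6.60) on 12.3 implied fragments. Cldn5, the dominant claudin of barrier endothelium, was at 3.75 FPKM (2.11 to 5.38; chromosome 11, 89458886 to 89459542) on 21.0 implied fragments. Cldn12 was 5.0 times Cldn5 (3.24 to 7.71), while the ratios of Cldn2 to Cldn5, 1.42 (0.902 to 2.23), and of Cldn19 to Cldn5, 1.12 (0.555 to 2.27), both had intervals that hold 1.

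Lower claudins followed. Cldn10, another pore-forming claudin, was at 2.52 FPKM (1.67 to 3.37), Cldn1, an epidermal barrier claudin, at 1.40 FPKM (1.01 to 1.79), and Cldn11, the claudin of oligodendrocyte myelin, at 0.592 FPKM (0.250 to 0.934). The epithelial claudin genes Cldn3, Cldn4 and Cldn7 were listed at 0. Over all 22 numbered claudin rows, 11 reached 1 FPKM and 7 were at 0, beside 61.0% and 23.6% of all symbols. Cldn12 held 40.2% of the summed FPKM of the 22 rows. Of these rows, 8 span under 700 bases, all a whole number of codons, so their span has the form of a coding length without untranslated ends; Cldn5 (657 bases) and Cldn3 (660 bases) are among them. How reads from untranslated ends would change these values was not tested.

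**Figure D2:**
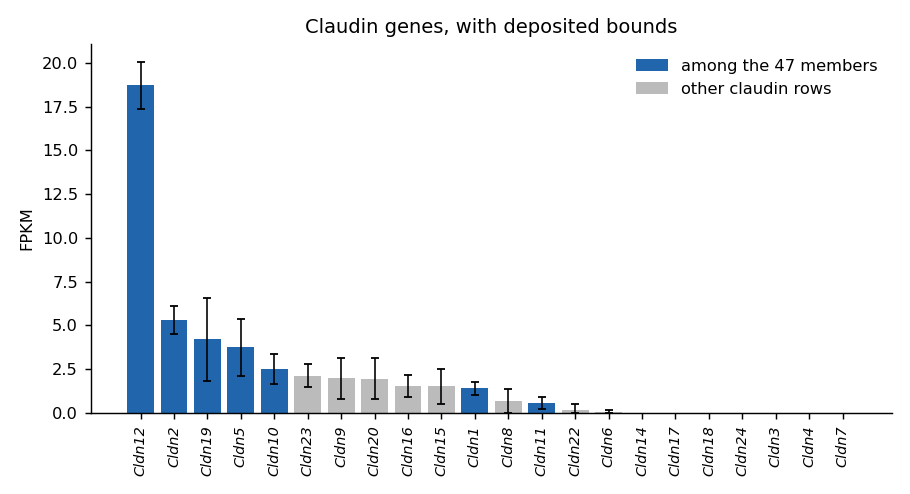
FPKM of all 22 numbered claudin rows in falling order, with bars from 0 and error bars at the deposited bounds; blue bars are members and grey bars are other claudins. Cldn12 stands alone at 18.7 FPKM, and the bounds of Cldn2, Cldn19 and Cldn5 overlap.

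The other junction genes all reached 1 FPKM, beside 61.0% of all symbols. Tjp1 (chromosome 1, 127243076 to 127307192), which encodes the scaffold zonula occludens-1, also found at the outer limiting membrane between photoreceptors and Müller glia, was at 26.7 FPKM (25.6 to 27.9). Tjp3, the epithelial scaffold gene of the same family, was at 1.92 FPKM (1.44 to 2.40), and its row overlaps Apba3. Ocln (occludin), a transmembrane junction protein gene, was at 1.98 FPKM (1.57 to 2.38). Tjp1 was 13.9 times Tjp3 (10.9 to 17.8) and 13.5 times Ocln (11.02 to 16.6).

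Junctional adhesion molecules differed among themselves. Jam2 was at 23.3 FPKM (21.9 to 24.7), with a row that overlaps Gabpa. Jam3, a partner of Jam2, was at 4.55 FPKM (3.61 to 5.49), and F11r, which encodes junctional adhesion molecule A, at 2.42 FPKM (1.73 to 3.10), with a row that overlaps PTMA. Jam2 was 5.13 times Jam3 (4.16 to 6.33), and Jam3 was 1.88 times F11r (1.33 to 2.66). In a wider list of junction genes, the median was 6.58 FPKM. At 1 FPKM or above were 6 of 8, beside 61.0% of all symbols. The highest were the multi-domain scaffold gene Mpdz at 22.2 FPKM (21.2 to 23.2), the paracingulin gene Cgnl1 at 11.1 FPKM (10.1 to 12.003) and the scaffold gene Magi1 at 10.6 FPKM (9.55 to 11.6). Marveld3 was listed at 0.

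Among the 5 transporter members, the 3 uptake genes stood above the 2 efflux pumps. Slc7a5, the light chain of the large neutral amino acid transporter, was at 29.1 FPKM (27.4 to 30.9), and Tfrc, the transferrin receptor gene that brings in iron, at 22.6 FPKM (21.3 to 23.9). Slco1c1, a thyroid hormone transporter gene enriched in brain barrier endothelium, was at 6.42 FPKM (5.51 to 7.33). Abcb1a, a rodent P-glycoprotein gene, was at 1.71 FPKM (1.37 to 2.06), and Abcg2, the breast cancer resistance protein gene, at 0.124 FPKM (0 to 0.266) on 3 implied fragments. The bounds of these 3 uptake genes lie above those of both pumps.

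A partner gene of Slc7a5 and a near copy of Abcb1a were measured as well. Slc3a2, the heavy chain that pairs with Slc7a5, was at 70.0 FPKM (66.3 to 73.6), 2.40 times Slc7a5 (2.22 to 2.59). Abcb1b, the near copy of Abcb1a that lies 31.8 kb from it on chromosome 4, was at 0.360 FPKM (0.168 to 0.552). Abcb1a was 4.76 times Abcb1b (2.72 to 8.32), a split that is uncertain because the copies can share reads. In the wider transporter list, the median was 10.3 FPKM. Beside 61.0% of all symbols, 10 of its 12 genes were at 1 FPKM or above. In this list the order of the members did not hold throughout, since the efflux pump gene Abcc1 was at 13.2 FPKM (12.2 to 14.1) and the cationic amino acid transporter gene Slc7a1 at 1.84 FPKM (1.53 to 2.15), both named after their values were seen. Highest were the glutamine transporter gene Slc38a3 at 119.8 FPKM (115.5 to 124.0), the monocarboxylate transporter gene Slc16a1 at 75.4 FPKM (72.6 to 78.2) and Slc3a2.

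Among mural genes, Rgs5 stood apart in FPKM. Rgs5, a regulator of G protein signalling that marks pericytes, was at 27.1 FPKM (22.1 to 32.2; chromosome 13, 92595346 to 92631357), although on only 115 implied fragments. Pdgfrb, the platelet-derived growth factor receptor gene by which pericytes are recruited, was at 2.34 FPKM (1.96 to 2.73). Rgs5 was 11.6 times Pdgfrb (9.08 to 14.8), and Pdgfrb was 1.51 times the endothelial gene Tek (1.16 to 1.98). Rgs5 had fewer implied fragments than Pdgfrb, 115 against 149, so its higher FPKM rests on the scaling to transcript length. That length is not given, and its effect was not tested. Abcc9, a potassium channel subunit gene of pericytes, was at 0.855 FPKM (0.536 to 1.17). Des (desmin, a muscle filament) was at 0.704 FPKM (0.363 to 1.05) and Cspg4, the NG2 proteoglycan gene, at 0.217 FPKM (0.122 to 0.311).

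Abcc9 forms a channel with the product of Kcnj8, its neighbour on chromosome 4 at a distance of 18.6 kb. Kcnj8 was at 1.06 FPKM (0.661 to 1.46), and its ratio to Abcc9, 1.24 (0.738 to 2.09), had an interval that holds 1. In the wider mural list, the median was 1.44 FPKM. Among its 11 genes 7 were at 1 FPKM or above, beside 61.0% of all symbols. The smooth muscle genes Myl9 at 4.44 FPKM (3.17 to 5.71) and Tagln at 2.93 FPKM (2.05 to 3.81), and the adhesion gene Mcam at 2.38 FPKM (1.84 to 2.91), were highest, and Cnn1, a smooth muscle calponin gene, was listed at 0. Pdgfra, a receptor gene of retinal astrocytes, fibroblasts and oligodendrocyte precursors rather than of pericytes, was at 3.08 FPKM (2.68 to 3.48), or 1.31 times Pdgfrb (1.07 to 1.61).

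**Figure D3:**
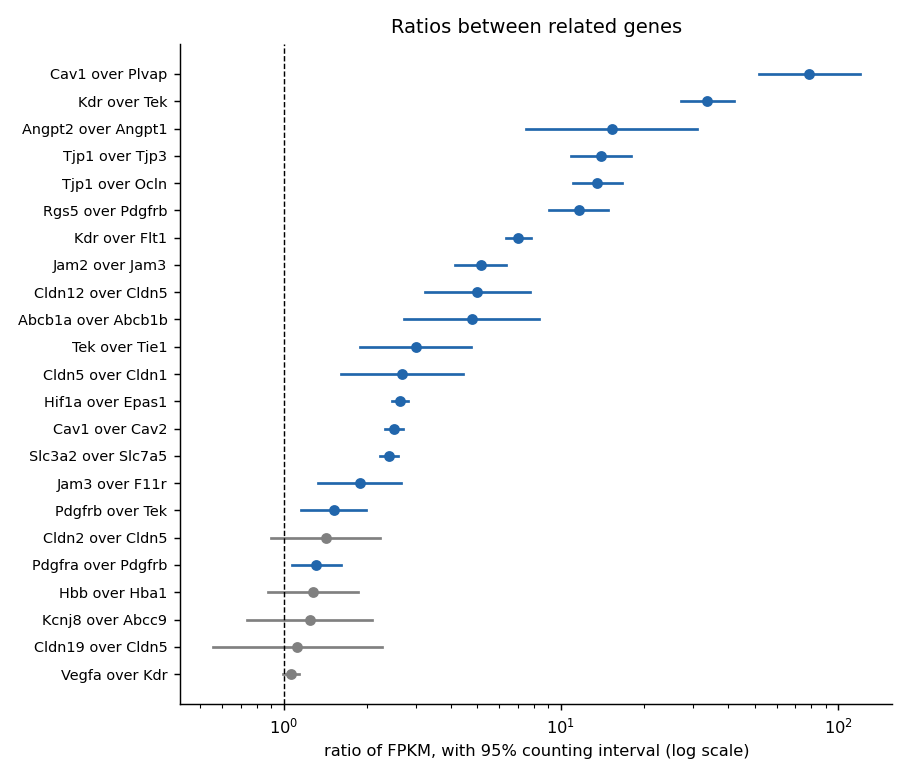
Ratios of FPKM for 23 pairs of related genes on a log axis, with 95% counting intervals; blue marks intervals above 1 and grey those that hold 1 (dashed line). Cav1 over Plvap, 78.7, is the largest, and 5 intervals hold 1.

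The 23 pairs were formed with the levels known and mostly with the higher gene on top, so their direction is no test. In 18 the interval lay above 1, and in 5 it held 1. The intervals cover counting error, and not the spread between animals or libraries or the transcript lengths used for scaling.

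Both globin members lay above the 3.17 FPKM median of all symbols. Hbb, a beta-globin gene, was at 13.2 FPKM (9.99 to 16.4; chromosome 1, 175134674 to 175136088) on 68.3 implied fragments, and Hba1, an alpha-globin gene, at 10.3 FPKM (7.27 to 13.4) on 45.5. Their ratio of 1.27 (0.875 to 1.85) had an interval that holds 1. Hba2, a close copy of Hba1 12.6 kb away on chromosome 10, was at 7.69 FPKM (4.99 to 10.4), and globin copies can share reads, so the separate values are uncertain. Other erythroid genes were lower: of 8 matched genes of the wider list 2 reached 1 FPKM, beside 61.0% of all symbols. They were Hba2 and the haem synthesis gene Fech at 6.03 FPKM (5.19 to 6.87), which most cells use. The erythroid transcription factor gene Klf1 was next at 0.495 FPKM (0.145 to 0.846). Alas2, the erythroid enzyme gene that starts haem synthesis, was listed at 0, as were Ahsp and Hbe1.

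Both hypoxia-inducible factor genes were high. Hif1a (ENSRNOG00000008292, chromosome 6, 106242730 to 106287704), the broadly expressed alpha subunit, was at 95.2 FPKM (92.2 to 98.1), a value above that of 98.1% of all symbols. Epas1, the alpha subunit known from endothelium and glia, was at 36.3 FPKM (34.1 to 38.5; chromosome 6, 20299621 to 20377837). Hif1a was 2.62 times Epas1 (2.45 to 2.80). These subunits are controlled mainly by protein breakdown, so their mRNA levels do not measure their activity. In the wider hypoxia list, the median was 14.0 FPKM. A level of 1 FPKM or above was found for 13 of 16 genes, beside 61.0% of all symbols. The glycolytic genes Ldha at 361 FPKM (352 to 370) and Pgk1 at 216 FPKM (209 to 223), followed by Bnip3 at 64.9 FPKM (61.1 to 68.8), were highest, and Adm, the adrenomedullin gene, was listed at 0.

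Genes of other cells in or near the retina were measured in the same table. The 10 endothelial members summed to 73.5 FPKM and the 5 mural members to 31.2 FPKM, against 8826 FPKM for the 3 rod markers and 818 FPKM for the 4 Müller glia markers. Kdr alone held 71.1% of the endothelial sum, and Rgs5 alone 86.8% of the mural sum. By implied fragments Rgs5 did not lead the mural members, with 115 against 149 for Pdgfrb. Without Kdr, the 9 other endothelial members summed to 21.3 FPKM. The rod markers were Gnat1 at 6316 FPKM, Sag at 1992 FPKM and Pde6b at 518 FPKM. The Müller glia markers were led by Glul at 617 FPKM, Rlbp1 at 114 FPKM and Slc1a3 at 58.4 FPKM. The 5 pigment epithelium markers summed to 201.3 FPKM, led by Ttr at 152 FPKM, Rgr at 24.0 FPKM and Rpe65 at 20.7 FPKM. Lrat was lower at 3.94 FPKM, and Best1 was at 0.270 FPKM (0.0495 to 0.490) on 6 implied fragments. These 5 markers stand beside Cldn19, a pigment epithelium gene too, at 4.20 FPKM.

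The remaining marker lists had lower sums than the rod, Müller glia and pigment epithelium lists. The 4 astrocyte markers, beside Pdgfra, summed to 32.1 FPKM. They were led by S100b at 23.6 FPKM and Gfap at 8.45 FPKM, with Aldh1l1 at 0.128 FPKM (0 to 0.257) and Pax2 listed at 0. The 4 oligodendrocyte markers, beside Cldn11, summed to 3.44 FPKM, led by Mog at 2.60 FPKM, Mbp at 0.664 FPKM and Mag at 0.171 FPKM, with Mobp at 0. The 4 surface epithelium markers summed to 3.77 FPKM, with Cdh1 at 2.87 FPKM, Epcam at 0.903 FPKM, and Krt5 and Krt14 at 0. The 4 leukocyte markers summed to 3.82 FPKM, with Csf1r at 3.62 FPKM, Ptprc at 0.201 FPKM, and Cd68 and Spi1 at 0. The 4 fibroblast markers summed to 1.62 FPKM and none reached 1 FPKM, beside 61.0% of all symbols. Dcn at 0.978 FPKM (0.504 to 1.45), Col1a2 at 0.286 FPKM (0.138 to 0.434) and Lum at 0.213 FPKM (0 to 0.426) were highest. The part of any of these cells in the members' levels was not tested.

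**Figure D4:**
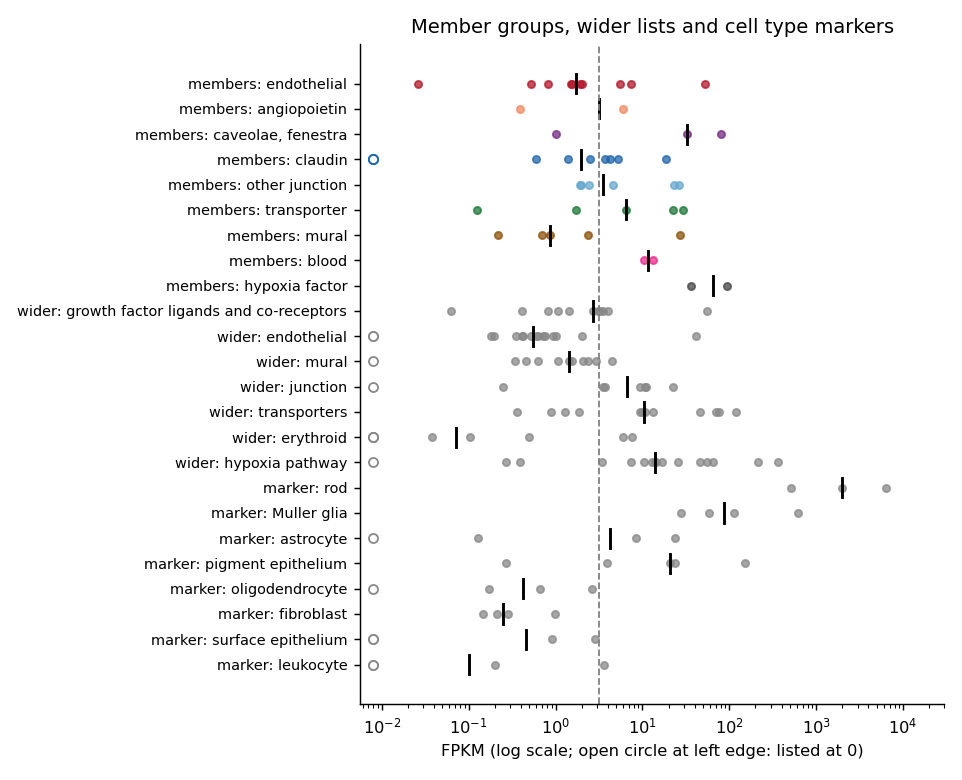
FPKM of every gene (points) and the median (black bar) of each member group, wider list and marker list on a log axis; open circles at the left edge are genes listed at 0, several of which can coincide. The dashed line is the 3.17 FPKM median of all symbols; the wider endothelial list has a median of 0.557 FPKM with Podxl alone far to the right, and the rod markers lie above all member groups.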

How the data were processed

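The authors deposited 1 gene table with FPKM values and a lower and an upper bound per gene, in Cufflinks format per the file headers. Cufflinks 2.0.8 and build rn5 are named, per the submitters' processing notes; the aligner, annotation release, strand setting and what level the bounds have were not given in the sources used. No column names a library, so the planned group comparisons with limma were not run, and depth per sample is unknown. The members and lists were chosen with earlier results of these data known. All 47 members are named in the text, with the 3 highest genes of each other list and those listed at 0; a few genes first placed on those lists were taken off them and are not reported here.

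Rows were matched by symbol ignoring case, and FPKM of rows sharing a symbol were summed; no member had more than 1 row. Implied fragments are the square of 2 × FPKM divided by the upper bound minus FPKM. The 95% ratio intervals use the normal approximation on the log scale; their calculation was tested on simulated data. The implied fragments sum to 6124332 over all rows. Starts were moved by 1 base to count from 1, since 1061 of 1076 olfactory receptor and claudin rows under 1100 bases then span whole codons. Python 3.11.15, numpy 2.4.6 and pandas 2.3.3 were used. Promoters are RefSeq's, on GRCr8, and no coordinate was converted between builds.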

Additional observations from a re-analysis of the deposited data

How the results depend on the processing

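The count of 34 members at 1 FPKM or more differed by at most 1.5 times in 6 of 7 alternatives and was 18 at a minimum of 5 FPKM. It was 39 at a minimum of 0.5 FPKM. Taking the highest row, rows with status OK or rows at 0.1 FPKM or more could not change the count, so these do not test it. Exact case drops only Abcc9, which lay under 1 FPKM, and so left it at 34. Of 35 recomputed group medians, 4 moved outside the deposited bounds of the middle gene (with an even number, the mean bounds of the middle pair). The mural median was 1.52 FPKM with exact case only, which drops Abcc9 (ABCC9 in the table). The claudin median was 3.75 FPKM with rows at 0.1 FPKM or more, which drops the 3 claudins listed at 0, and also 3.75 FPKM with rows of 10 or more implied fragments, an alternative chosen after seeing the data. Under that same alternative the transporter median was 14.5 FPKM, without Abcg2. None of 219 recomputed member values moved, since each member has 1 row with status OK, so this does not test them. No paired analysis was possible because every gene has 1 value that belongs to no sample. For that reason the replicate block, the pseudocount, the filter in the group fits and leaving out each library were not run. Few fragments limit the precision of some members: Flt4 rests on 0.646 implied fragments, Abcg2 on 3, Angpt1 on 8, and Emcn, Cldn11 and Cldn19 on about 12 each.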
